A study of Arabidopsis thaliana with 32 samples.

Results

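The 5 genes described here are SDC (AT2G17690), BMI1C (AT3G23060), MPC (AT3G19350), ALN (AT4G04955) and FH5 (AT5G54650) of Arabidopsis thaliana. They were taken by name and identifier, 5 of the 33602 genes counted, as genes reported to be read from the mother's allele in endosperm and silenced on the other. All 5 passed the filter on low counts over the 32 libraries fitted together. RNA came from endosperm and embryo of seeds, cut apart by laser capture microdissection, with 2 libraries in each of 16 groups. The mother is named first in every cross.

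Standard seeds were Col x Col and C24 x C24, selfed seeds of the accessions Col (Col-0) and C24, and the reciprocal hybrids Col x C24 and C24 x Col. CNS seeds came from lines that carry the nucleus of 1 accession in the cytoplasm of the other. C24(Col) joins a Col nucleus to C24 cytoplasm and Col(C24) the reverse, and the allele reads of nuclear and organelle genes in the hybrids matched this. The CNS groups were C24(Col) x C24(Col), Col(C24) x Col(C24), Col(C24) x Col, and an uneven group of hybrids whose replicate 1 is labelled Col x Col(C24) and whose replicate 2 is labelled C24(Col) x Col(C24). That uneven group, written Col or C24(Col) x Col(C24), has a mother with a Col nucleus in both replicates. All plants were grown under the same 16/8 h light cycle per the labels, which give neither seed age nor the number of plants behind a library. DNA methylation was not measured, so the silencing in the genes' description was not tested here. P-values measure the spread between these libraries, which may be technical.

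In flowering plants the endosperm, the tissue that feeds the embryo, holds 2 maternal genomes and 1 paternal. An imprinted gene is read mostly from the allele of 1 parent. At many maternally expressed genes, DNA methylation or Polycomb silences the paternal allele, while the demethylase DME acts on the maternal allele in the central cell before fertilisation. SDC encodes an F-box protein, a substrate adaptor for ubiquitin ligases, and is activated when the DNA methyltransferases DRM1, DRM2 and CMT3 are lost together. BMI1C encodes a RING-finger protein of Polycomb repressive complex 1. MPC encodes a protein related to the C-terminal domain of poly(A)-binding proteins. ALN encodes allantoinase, which opens the ring of allantoin during purine breakdown, and FH5 encodes a formin that nucleates actin and acts in cell plate formation.

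SDC lies on chromosome 2 at 7682162 to 7684083 on the plus strand, with 3 exons. ALN lies on chromosome 4 at 2522034 to 2525352 on the minus strand with 15 exons, and MPC on chromosome 3 at 6705474 to 6706127 on the plus strand with 2 exons. BMI1C lies on chromosome 3 at 8200636 to 8203335 on the plus strand with 7 exons, and FH5 on chromosome 5 at 22197530 to 22202127 on the minus strand with 6 exons. Positions are those of the RefSeq annotation of TAIR10.1. No stretch of 50 bases from the longest transcript of any of the 5 genes (0 of 1576 for SDC and 0 of 3458 for FH5, for example) recurred elsewhere in the nuclear genome. SDC shares 1303 bases with AT2G17695, a gene on the opposite strand, and the sources used here do not say whether reads were counted by strand.

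The promoter of SDC is known for tandem repeats that carry its DNA methylation, and they are shown here for that reason. Units of this kind were searched for in SDC alone. A search of the 500 bases before the annotated start found 6 units of 32 bases without gaps, at chromosome 2, 7681896 to 7682087. The array spans 192 bases with 6 CG sites, and its last base lies 75 bases before the start of SDC. Units are read from the plus strand of TAIR10.1 (RefSeq), and capitals mark bases that match the most common letter at their place.
Unit 1: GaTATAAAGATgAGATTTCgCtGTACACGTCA
Unit 2: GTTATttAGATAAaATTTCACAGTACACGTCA
Unit 3: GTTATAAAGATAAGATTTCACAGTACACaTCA
Unit 4: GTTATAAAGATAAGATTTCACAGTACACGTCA
Unit 5: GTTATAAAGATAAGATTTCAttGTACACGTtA
Unit 6: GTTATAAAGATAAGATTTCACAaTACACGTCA

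Unit 4 matched the common letters at all 32 places, and unit 1, the farthest from the gene, at 28. The window from 250 bases before to 50 after the start was searched for repeated words of 20 bases. In SDC 35 positions held a word that had occurred earlier in the window, and the other 4 genes had 0 such positions. Of 27443 such windows of protein-coding genes, 2.01% held a repeated word of 20 bases. CG sites in the same window numbered 8 in SDC, 7 in ALN, 7 in MPC, 5 in FH5 and 2 in BMI1C, against a median of 6. The BMI1C promoter was thus poor in CG sites, with 6.51% of windows holding fewer.

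Libraries held 8640820 to 54288320 gene counts, and hybrid libraries 1.42 to 6.19 M nuclear allele reads. Levels are given as CPM, gene counts relative to library size after TMM scaling. The 8 embryo markers summed to 47.7 to 120 CPM in endosperm and 749 to 903 CPM in embryo. The 6 endosperm markers summed to 409 to 730 CPM in endosperm and 49.98 to 146 CPM in embryo, with MINI3, an early endosperm regulator, at 0 in every endosperm library, and with IKU2 and AGL62 at means of 0.113 and 0.296 CPM in standard endosperm. The 13 markers of the seed coat, a tissue that is wholly maternal, summed to 115 to 551 CPM in endosperm and 26.3 to 62.6 CPM in embryo. Of the allele reads of 11 of them, 98.3% to 99.9% were maternal in endosperm and 55.8% to 99.3% in embryo.

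All 5 genes were higher in endosperm than in embryo, in the standard and in the CNS seeds. The log2 difference was smallest for FH5, and those of MPC and BMI1C rest on few embryo reads. Each tissue held 8 libraries in each set.

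SDC read 140 to 283 CPM in standard endosperm (median 170) and 2.32 to 9.16 CPM in standard embryo (median 4.58). In CNS seeds it read 112 to 253 CPM (median 143) in endosperm and 0.393 to 7.14 CPM (median 2.27) in embryo. The tissues did not overlap in either set. The log2 difference was 5.46 ± 0.19 (SE) in standard and 5.88 ± 0.59 in CNS seeds (edgeR quasi-likelihood test, Benjamini-Hochberg adjusted p = 2.39e-11 and 3.36e-06). ALN read 53.4 to 126 CPM in standard endosperm (median 87.0) and 3.85 to 7.82 CPM in embryo (median 5.44), with CNS seeds at 52.9 to 106 CPM and 1.98 to 6.55 CPM. The tissues did not overlap for ALN either, with log2 differences of 4.02 ± 0.13 and 4.31 ± 0.25 (adjusted p = 2.09e-11 and 5.83e-08 by edgeR).

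BMI1C read 9.48 to 51.1 CPM in standard endosperm (median 20.9) and 0 to 0.968 CPM in embryo (median 0.505). In CNS seeds it read 7.22 to 73.8 CPM in endosperm and 0 to 3.67 CPM in embryo, where 2 of 8 libraries had no read in each set. Pooled over libraries, its share of counts in endosperm was 40.5 times that in embryo in standard seeds and 43.7 times in CNS seeds. The log2 differences were 6.68 ± 0.28 and 6.33 ± 0.71 (adjusted p = 2.55e-10 and 8.29e-06 by edgeR). They weigh each cross alike on the log scale, so they are larger than the pooled ratios. Embryo held only 77 BMI1C reads in standard and 198 in CNS seeds. C24 x C24 embryo had 0 reads in both libraries, so the size of the standard value is uncertain beyond its SE.

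MPC read 0.348 to 25.3 CPM in standard endosperm (median 8.90) and 0 to 38.7 CPM in CNS endosperm (median 9.17). In embryo 15 MPC reads fell in the 8 standard libraries and 2 reads in the 8 CNS libraries. The pooled ratio was 118 (exact 95% counting interval 71.0 to 211) in standard and 2283 (631 to 18856) in CNS seeds. The tests gave adjusted p = 1.2e-07 and 0.00041 by edgeR. The tissues overlapped in both sets through single endosperm libraries at or near 0, and the CNS call was lost (adjusted p = 1.00) without replicate 1 of Col(C24) x Col(C24) endosperm; the other library of that group had no read.

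FH5 read 13.3 to 33.8 CPM in standard endosperm (median 19.6) and 9.39 to 14.8 CPM in embryo (median 10.6), so the tissues overlapped. In CNS seeds they did not, at 14.2 to 26.6 CPM and 6.84 to 11.3 CPM. The log2 difference was 1.01 ± 0.17 in standard and 1.01 ± 0.16 in CNS seeds (adjusted p = 6.88e-05 and 0.000151 by edgeR). All 5 genes were thus called higher in endosperm in either set, where 39.1% of 20235 tested genes in standard and 34.8% of 21816 in CNS seeds were called higher. In bulk samples, fewer cells with an RNA and less of it per cell cannot be told apart. Of the 13 seed coat markers, 10 were called higher and 1 lower in standard endosperm, and 9 higher and 2 lower in CNS endosperm. Their part in the differences of the 5 genes was not tested.

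**Figure D1:**
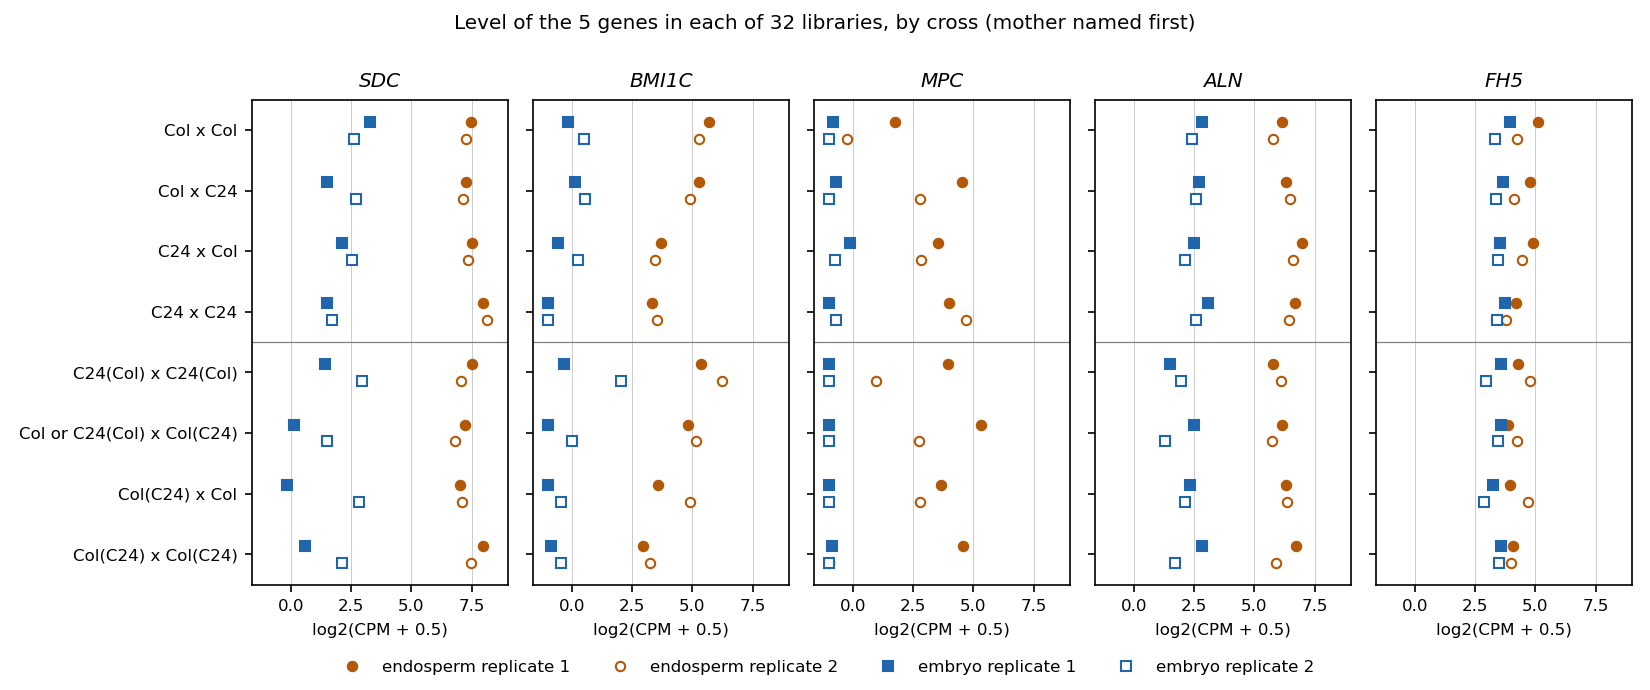
Level of each gene in each of 32 libraries, as log2(CPM + 0.5), by cross. Circles are endosperm and squares embryo, filled for replicate 1 and open for replicate 2, and the line parts standard from CNS seeds. SDC and ALN form 2 bands that do not meet, FH5 sits at 6.84 to 33.8 CPM over both tissues, and MPC in endosperm runs from 0 to 38.7 CPM.

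The genes next to the 5 moved in both directions between tissues. STY8 beside SDC, at means of 44.8 CPM in standard endosperm and 43.5 CPM in standard embryo, had a log2 difference of 0.11 ± 0.11. AT2G17695, the antisense gene of SDC, was lower in endosperm, at 3.78 against 7.82 CPM (-1.02 ± 0.18, adjusted p = 0.000158 by edgeR). CFM3A, a chloroplast RNA splicing gene that starts 57 bases past BMI1C, was lower in endosperm (-0.93 ± 0.10), as was RAT5, a histone H2A gene that ends 37 bases from FH5 (-0.69 ± 0.14). GRXS17, a glutaredoxin gene next to ALN, was at -0.01 ± 0.08. AT3G19360, which starts 1005 bases past MPC, was higher in endosperm by 2.11 ± 0.15 in standard and 1.69 ± 0.17 in CNS seeds, and AT3G19340 on the other side of MPC by 0.56 ± 0.09 and 0.54 ± 0.10. AT4G04957 beside ALN was called higher in standard endosperm (adjusted p = 0.000973 by edgeR), at a mean of 0.720 CPM with no read in standard embryo, and was not called in CNS seeds (adjusted p = 1.00).

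**Figure D2:**
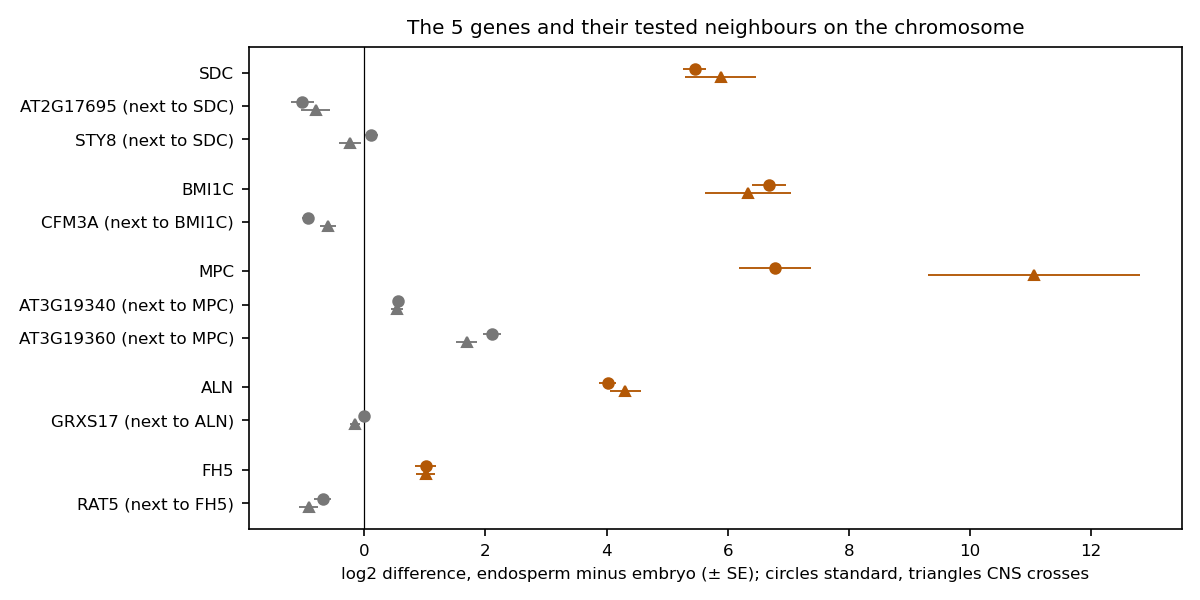
Log2 difference of endosperm minus embryo with its SE for the 5 genes (orange) and their nearest genes (grey), for neighbours whose mean levels in the 2 tissues sum to 2 CPM or more. Circles are standard and triangles CNS seeds. The neighbours lie between -1.02 and 2.11, AT3G19360 highest; the CNS value of MPC rests on 2 embryo reads.

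In the hybrids, allele reads told whether RNA came from the mother's or the father's copy. SDC was read almost only from the maternal allele in all 8 hybrid endosperm libraries, whichever accession was the mother. BMI1C was read only or mostly from the maternal allele. MPC was read mostly from the C24 allele, whether C24 was mother or father, and ALN and FH5 were not called. The maternal term was tested against 2 maternal to 1 paternal genome in endosperm and 1 to 1 in embryo.

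SDC had 553 maternal and 1 paternal reads in Col x C24 endosperm replicate 1, and 982 and 2 in replicate 2. In C24 x Col it had 876 and 2, and 2190 and 6. The 4 maternal shares ran from 99.7% to 99.8%, with exact 95% counting intervals from 99.0% upward. The CNS hybrids gave 1920 and 3, 1152 and 1 with a Col-nucleus mother, and 1573 and 10, 2161 and 14 with a Col(C24) mother. Those shares ran from 99.4% to 99.9%. The maternal excess over the 2 to 1 ratio was 7.75 ± 0.20 on the log2 scale in standard endosperm and 7.41 ± 0.23 in CNS endosperm (edgeR on allele counts, adjusted p = 2.81e-10 and 8.11e-09).

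BMI1C had 56, 50, 23 and 63 maternal reads and 0 paternal reads in the standard hybrids, replicates 1 and 2 of Col x C24 and then of C24 x Col. A share of 100% from 23 reads has an exact lower limit of 85.2%, and from 63 reads 94.3%. With 0 paternal reads in every library, these counts set no upper bound on the maternal excess. Its fitted size in standard endosperm is thus not a measured one. The maternal excess was called in standard endosperm (8.21 ± 1.10, adjusted p = 0.00114 by edgeR), but not without C24 x Col replicate 1 (adjusted p = 0.0745) or replicate 2 (0.144). In CNS endosperm it had 134 maternal and 8 paternal, 99 and 0, 59 and 2, and 112 and 10 reads, shares of 94.4%, 100%, 96.7% and 91.8%. There it was not called (3.73 ± 0.88, adjusted p = 0.0519, maternal share above 2 in 3 in 4 of 4 libraries), but was with the minimum of 10 reads summed over libraries (adjusted p = 0.00244). Paternal reads of BMI1C were thus seen in 3 of 4 CNS libraries and in 0 of 4 standard ones, a difference that was not tested.

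Of the 5 genes, 2 were called with maternal excess in standard and 1 in CNS endosperm, where 2.06% of 8271 and 1.12% of 9219 tested genes were. Seed coat markers summed to 240 to 551 CPM in these standard and 144 to 319 CPM in these CNS libraries. Maternal reads from seed coat RNA and from endosperm cannot be told apart by allele. Within 250 kb of SDC the median maternal share of genes with 10 or more allele reads was 64.3% to 69.2% in endosperm, and within 250 kb of BMI1C 64.8% to 76.9%. The shares near 100% were thus above the medians of the genes around them.

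MPC reads came mostly from the C24 allele, whichever parent gave it. In C24 x Col endosperm it had 74 and 100 maternal reads, all from C24, and 0 paternal ones. With the parents reversed, Col x C24 had 12 maternal Col reads and 102 paternal C24 reads in replicate 1, and 0 and 30 in replicate 2. The C24 allele gave 97.4% ± 5.26 (SD, n = 4) of MPC reads in standard endosperm. In CNS endosperm the Col-nucleus mothers gave 97 maternal to 411 paternal reads and 0 to 98, and the Col(C24) mothers 117 to 1 and 165 to 0. The C24 share there was 95.01% ± 9.41 (SD, n = 4). Over both sets, Col reads of MPC with a Col-nucleus mother were 12 and 97 in replicate 1 and 0 in replicate 2. With a Col-nucleus father they were at most 1 per library.

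The difference between Col and C24 alleles of MPC was -6.68 ± 0.67 in standard and -5.62 ± 0.76 in CNS endosperm (log2, adjusted p = 5.31e-05 and 0.000614 by edgeR). Without Col(C24) x Col replicate 2 the CNS value was -5.01 and was not called (adjusted p = 0.0599). The background was 3.52% of genes called with C24 higher in standard and 1.4% in CNS endosperm. The maternal term of MPC was 2.02 ± 1.03 (adjusted p = 0.529) and 1.27 ± 0.93 (adjusted p = 0.988). A maternally expressed gene by name, MPC was thus not called maternal in these hybrids, and in the 4 libraries with a Col-nucleus mother 80.9% to 100% of its allele reads were paternal. Within 250 kb of MPC the median maternal share was 64.8% to 70.6% in the same 8 libraries.

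ALN and FH5 were also not called for parent of origin. The maternal share of ALN was 67.7% and 76.2% in Col x C24 endosperm (109 of 161 and 234 of 307 reads) and 66.9% and 64.0% in C24 x Col (291 of 435 and 438 of 684 reads). In CNS endosperm it ran from 55.4% to 73.1%. These shares lie around the 2 in 3 that genome dosage gives, and the maternal term was 0.16 ± 0.16 in standard and -0.13 ± 0.24 in CNS endosperm (log2, adjusted p = 0.826 and 0.994 by edgeR). ALN was thus read from both alleles in these hybrids, unlike in the description by which it was chosen. The labels give no seed age, so the seed stage behind that description could not be matched. FH5 had only 24 to 135 allele reads per library, and its maternal share ran from 54.2% to 77.8% in standard and from 15.2% to 89.7% in CNS endosperm. Its maternal term was 0.10 ± 0.47 and -0.22 ± 1.07 (adjusted p = 0.976 and 1.00).

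SDC alleles also differed by accession in CNS endosperm (Col over C24, 1.14 ± 0.29, adjusted p = 0.0358 by edgeR), where 6.86% of genes were called. The call was lost without any 1 of the 4 libraries (adjusted p = 0.128 to 0.241). In standard endosperm the value was 0.20 ± 0.37 (adjusted p = 0.845), and 12.5% of genes were called. The term rests on paternal reads, which were 1 to 3 with a Col-nucleus mother and 10 and 14 with a Col(C24) mother.

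In embryo, SDC was the only gene of the 5 with 10 allele reads in every standard hybrid library. Its maternal and paternal reads were 25 and 1, and 50 and 0 in Col x C24, and 26 and 0, and 110 and 11 in C24 x Col. The maternal excess over 1 to 1 was 4.85 ± 0.54 (log2, adjusted p = 1.37e-08 by edgeR), in a test that called 1% of 9654 genes with maternal excess. CNS embryos gave 9 and 0, 61 and 0, 4 and 1, and 100 and 0 reads, too few in 2 libraries for the test. Endosperm markers summed to 50.4 to 146 CPM and seed coat markers to 27.2 to 62.6 CPM in the hybrid embryo libraries. Whether the SDC reads there came from embryo cells or from these tissues cannot be told apart.

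ALN and FH5 were tested in CNS embryo and not called (0 of 2; 0 at an unadjusted p under 0.05; background 0.0511% of 9794 genes with maternal excess). Single libraries stood far from an even split. ALN had 40 maternal and 1 paternal read in Col(C24) x Col replicate 2 and 13 and 24 in Col or C24(Col) x Col(C24) replicate 2. FH5 had 0 and 17 in that last library, and 9 and 36 in C24 x Col replicate 2. The median maternal share of genes within 250 kb was 46.1% around ALN in the first of these libraries and 53.8% around FH5 in the second. BMI1C had 5 allele reads and MPC 6 over all hybrid embryo libraries.

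**Figure D3:**
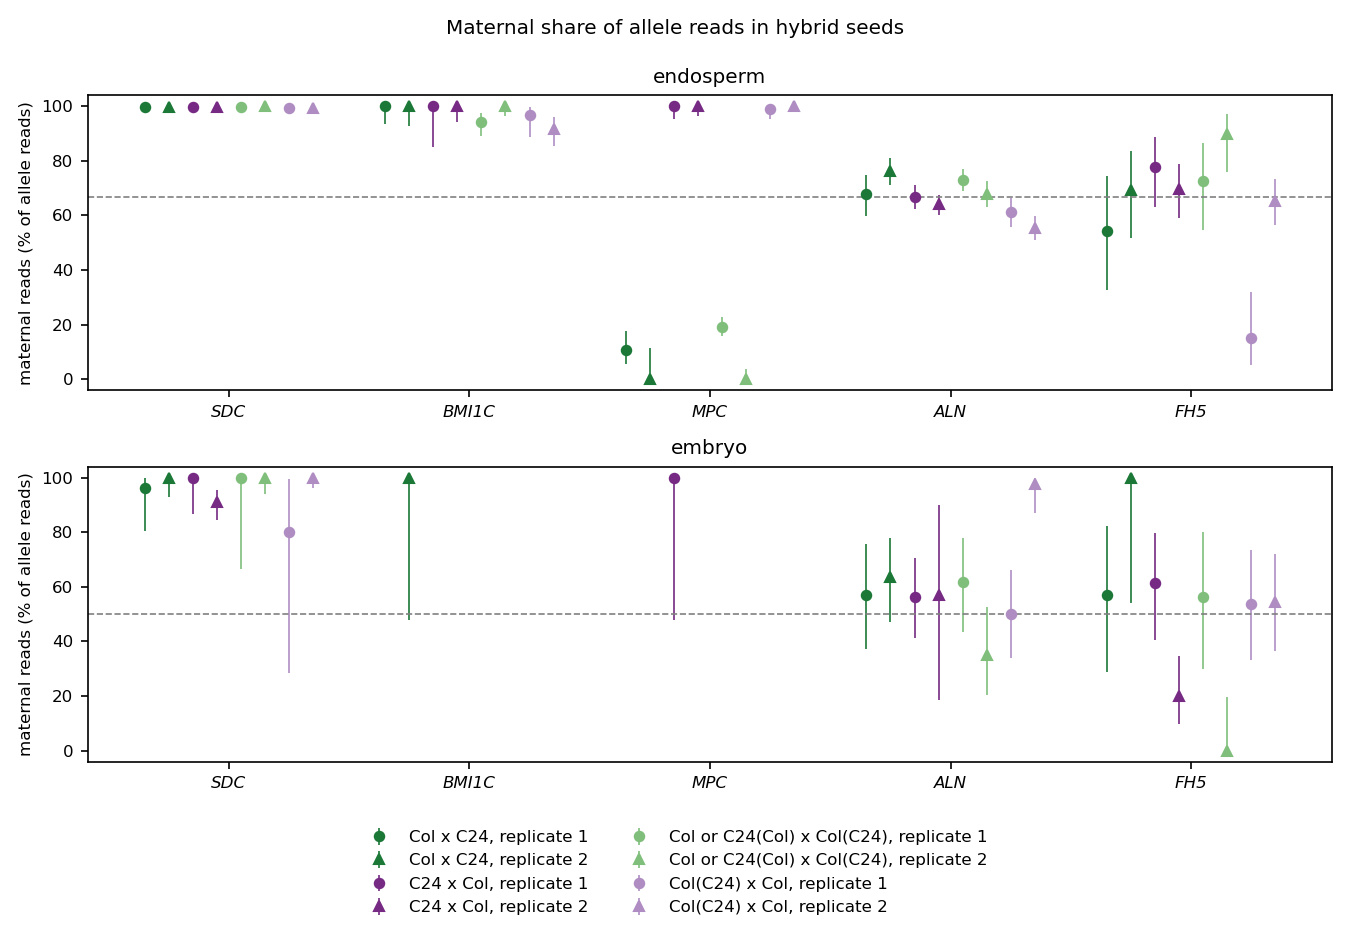
Maternal share of allele reads, in percent, of each gene in each hybrid library with 5 or more such reads, with exact 95% counting intervals. Green marks mothers with a Col nucleus and purple mothers with a C24 nucleus, dark for standard and light for CNS seeds, and the dashed line is the share that genome dosage gives. SDC lies at 99.4% to 99.9% in endosperm, while MPC lies at 0% to 19.1% under Col-nucleus mothers and at 99.2% to 100% under C24-nucleus mothers.

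BMI1C was the gene whose endosperm level differed between the accessions. It read 51.1 and 38.0 CPM in Col x Col, 37.7 and 29.3 in Col x C24, then 12.4 and 10.4 in C24 x Col, and 9.48 and 11.2 in C24 x C24. In CNS seeds it read 40.0 and 73.8 CPM in C24(Col) x C24(Col), 27.5 and 34.7 in Col or C24(Col) x Col(C24), 11.3 and 29.4 in Col(C24) x Col, and 7.22 and 9.08 in Col(C24) x Col(C24). All 8 libraries with a Col-nucleus mother were at 27.5 CPM or more, and all with a C24-nucleus mother were at 12.4 CPM or less except Col(C24) x Col replicate 2 at 29.4 CPM.

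Selfed Col exceeded selfed C24, at 44.6 ± 9.26 against 10.4 ± 1.24 CPM (SD, n = 2 each; log2 2.12 ± 0.41, adjusted p = 0.00528 by edgeR). Without C24 x C24 replicate 1 the adjusted p was 0.0710. Selfed C24(Col) exceeded selfed Col(C24), which puts the Col nucleus in the other cytoplasm, at 56.9 ± 23.9 against 8.15 ± 1.31 CPM (2.78 ± 0.42, adjusted p = 0.000829). BMI1C was the only 1 of the 5 called in either comparison, where 7.96% and 7.9% of genes were called. In embryo C24 x C24 had 0 BMI1C reads in both libraries, which allows up to 0.173 and 0.168 CPM, and Col x Col read 0.401 and 0.915 CPM. No gene of the 5 was called there (0 of 4 tested in each set by edgeR and by DESeq2, with 1 and 0 by edgeR at an unadjusted p under 0.05, against 4.04% and 4.51% of genes called).

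The reciprocal hybrids asked whether a level follows the direction of the cross. For BMI1C, Col x C24 endosperm was at 33.5 ± 5.95 CPM and C24 x Col at 11.4 ± 1.47 CPM (SD, n = 2 each; log2 1.53 ± 0.41, unadjusted p = 0.00197). This did not pass the adjustment in edgeR (adjusted p = 0.185) but did in DESeq2 (0.0309) and with no filter on low counts (0.0002). In CNS endosperm the difference was 0.60 ± 0.39 (adjusted p = 0.560), and the difference between the sets was not called (-0.93 ± 0.56, adjusted p = 1.00). In all, 0 of 5 genes were called in either endosperm comparison by edgeR (1 and 0 at an unadjusted p under 0.05), where 0.222% and 0.325% of genes were called. DESeq2 called 1 and 0. In embryo 0 of 4 tested genes were called in either set (0 unadjusted, 0 by DESeq2; background 0.00501% and 0%).

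Changing the father under the same mother did not change BMI1C past the threshold in edgeR. The C24 father on a Col mother gave a log2 difference of -0.43 ± 0.40 (adjusted p = 0.937), and the Col father on a C24 mother 0.16 ± 0.40 (adjusted p = 0.948). On the Col(C24) mother the Col father gave 1.32 ± 0.40 (adjusted p = 0.127 by edgeR, 0.00121 with no filter and 0.0445 by DESeq2), through replicate 2 at 29.4 CPM. Without Col(C24) x Col replicate 1 the value was 1.85 and was called (adjusted p = 0.0126), and without replicate 2 it was 0.49 (adjusted p = 0.998).

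SDC varied less between crosses. It read 179 and 153 CPM in Col x Col endosperm, 153 and 140 in Col x C24, then 182 and 162 in C24 x Col, and 247 and 283 in C24 x C24. In CNS seeds it read 183 and 132 CPM in C24(Col) x C24(Col), 149 and 112 in Col or C24(Col) x Col(C24), 128 and 138 in Col(C24) x Col, and 253 and 178 in Col(C24) x Col(C24). Selfed seeds with a C24 nucleus were highest in both sets, at 265 ± 25.5 and 216 ± 53.1 CPM, and the other 6 groups had means from 130 to 172 CPM.

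For SDC the difference between selfed Col and selfed C24 endosperm was not called (-0.67 ± 0.24, unadjusted p = 0.0146, adjusted p = 0.112 by edgeR). DESeq2 gave an adjusted p of 0.0460, and edgeR with library totals in place of TMM 0.0278. Neither change to a Col father was called for SDC. C24 x Col against C24 x C24 gave -0.60 ± 0.24 (unadjusted p = 0.0251, adjusted p = 0.295), and Col(C24) x Col against Col(C24) x Col(C24) gave -0.70 ± 0.24 (unadjusted p = 0.0111, adjusted p = 0.188). In embryo selfed Col read 9.16 and 5.61 CPM and selfed C24 2.36 and 2.75 CPM, the opposite order to endosperm. The interaction of tissue and accession was called for SDC alone of the 5 (-2.09 ± 0.47, adjusted p = 0.0422 by edgeR), where 1.77% of genes were called. It was not called when any 1 of the 8 libraries was left out (adjusted p = 0.0540 to 0.178) or with the 4 groups fitted by themselves (0.0554).

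**Figure D4:**
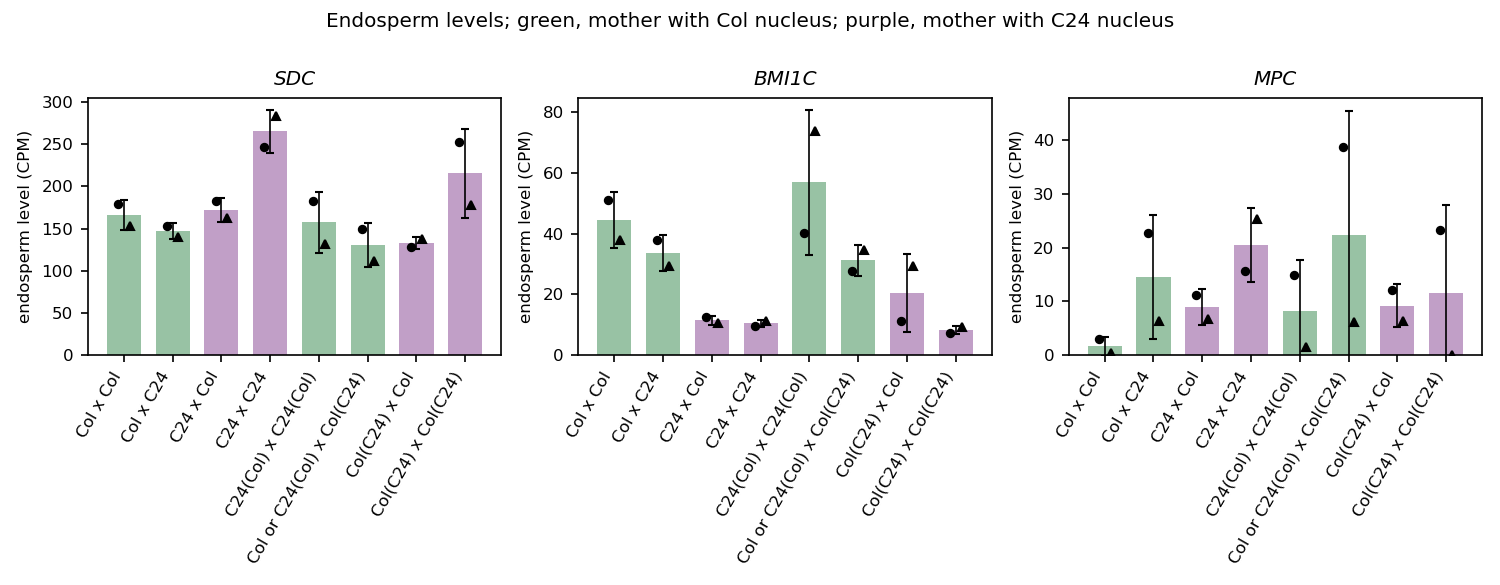
Endosperm levels of SDC, BMI1C and MPC in CPM by cross, as bars for the mean of 2 libraries with SD and points for the libraries (circle replicate 1, triangle replicate 2). Green bars have a mother with a Col nucleus and purple bars one with a C24 nucleus, and SD bars of MPC that pass below 0 are cut there. BMI1C is at 31.1 to 56.9 CPM on average under Col-nucleus mothers and at 8.15 to 20.3 CPM under C24-nucleus mothers.

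MPC varied most between replicates, and replicate 1 was above replicate 2 in every endosperm cross but C24 x C24. It read 2.88 and 0.348 CPM in Col x Col endosperm, 22.8 and 6.37 in Col x C24, then 11.2 and 6.59 in C24 x Col, and 15.6 and 25.3 in C24 x C24. In CNS seeds it read 14.8 and 1.46 CPM in C24(Col) x C24(Col), 38.7 and 6.17 in Col or C24(Col) x Col(C24), 12.0 and 6.34 in Col(C24) x Col, and 23.2 and 0 in Col(C24) x Col(C24), where 0 reads allow up to 0.0905 CPM. The replicates of Col(C24) x Col(C24) thus spanned much of the range of all 16 endosperm libraries.

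Standard seeds with any C24 allele all lay above Col x Col for MPC, and selfed Col against selfed C24 gave -3.63 ± 1.72 (adjusted p = 0.237 by edgeR). It was called with only these groups fitted (adjusted p = 0.00601) and with no filter on low counts (1.47e-12). The C24 father on a Col mother gave 3.13 ± 1.71 (adjusted p = 0.901, and 1.3e-08 with no filter). In CNS seeds the selfed lines overlapped (-0.54 ± 1.45, adjusted p = 0.868), and without replicate 1 of Col(C24) x Col(C24) the sign turned, to 10.48 (adjusted p = 0.0326), against a lone library with no read.

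ALN read 61.8 ± 11.8 CPM in Col x Col endosperm, 82.8 ± 6.24 in Col x C24, 112 ± 20.3 in C24 x Col and 94.4 ± 10.7 in C24 x C24 (SD, n = 2 each). Selfed Col was below selfed C24 by a log2 difference that was not called (-0.60 ± 0.28, adjusted p = 0.227), and the CNS lines gave -0.46 ± 0.28 (adjusted p = 0.338). FH5 group means ran from 15.5 ± 3.08 CPM in C24 x C24 to 26.0 ± 11.1 CPM in Col x Col, with a difference of 0.76 ± 0.37 (adjusted p = 0.257). No father swap called any of the 5 genes in edgeR (0 of 5 in each of 3 endosperm comparisons, with 0, 1 and 2 at an unadjusted p under 0.05 and 0, 0 and 1 called by DESeq2). The background was 0.259%, 2.89% and 1.92% of genes for Col, C24 and Col(C24) mothers. In embryo 0 of 4 were called in each (0 unadjusted, 0 by DESeq2; background 0.436%, 0.707% and 0.943%). For the interaction of cross direction and set, 0 of 5 were called (0 unadjusted, 0 by DESeq2; background 0%).

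Genes that share a pathway or family with the 5 are given by lists, without a test of the list. Of 8 other maternally expressed imprinted genes, 6 were tested in standard seeds and 5 were higher in endosperm, led by FIS2, a Polycomb gene (55.5 ± 19.8 against 0.784 ± 0.589 CPM, log2 6.47 ± 0.26), and the homeodomain gene HDG9 (325 ± 156 against 6.54 ± 2.17 CPM, 5.68 ± 0.26). Of 11 paternally expressed genes 10 were higher, with the MADS-box gene PHE1 at 6.16 ± 0.45. Over all tested genes 39.1% were higher and 39.6% lower in standard endosperm, and the medians of the lists, 4.78 and 4.97, stand beside a median of 0.00. On the allele scale 2 of 4 tested maternally expressed genes had maternal excess in standard endosperm, FIS2 (7.00 ± 0.57) and HDG9 (1.95 ± 0.09). Of 7 tested paternally expressed genes 6 had paternal excess, with YUC10, an auxin synthesis gene, at -7.98 ± 0.63, and MYB3R2 had maternal excess (5.03 ± 0.46). Over all tested genes 2.06% had maternal and 2.03% paternal excess.

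Of 24 genes of DNA methylation tested in standard seeds, 16 were lower in endosperm, 2 higher and 6 not called, where 39.6% of all genes were lower. Their median log2 difference was -0.99. VIM1, which maintains CG methylation, read 35.2 ± 9.17 CPM in endosperm against 270 ± 46.7 CPM in embryo (-2.88 ± 0.15), and AGO4, which guides methylation with small RNAs, 166 ± 19.9 and 657 ± 58.4 CPM (-1.91 ± 0.10). DML3, a demethylase gene, was higher in endosperm (5.24 ± 0.30). In CNS seeds 15 were lower and 4 higher, where 33.9% of all genes were lower and 34.8% higher.

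In the lists of relatives of the other members, calls went both ways, as they did over all genes (39.1% higher and 39.6% lower). Of 10 Polycomb genes 5 were higher and 3 lower in standard endosperm, and BMI1B, the paralog of BMI1C, was lower (9.74 ± 1.40 against 19.2 ± 2.66 CPM, -0.92 ± 0.12, adjusted p = 1.08e-05), as was BMI1A (-0.46 ± 0.10). Of 8 purine and ureide genes 4 were higher and 2 lower, with AAH, which acts on the product of ALN, at 28.7 ± 5.23 against 5.11 ± 0.857 CPM (2.56 ± 0.13). Of 6 tested genes for poly(A)-binding proteins 2 were higher, PAB5 (4.19 ± 0.20) and PAB3 (7.28 ± 0.89), and 4 lower. Of 10 formin genes 4 were higher and 5 lower, FH9 most of all (15.0 ± 6.11 against 427 ± 33.1 CPM, -4.78 ± 0.24).

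The genes whose levels followed each of the 5 most closely were found by Pearson's r of log2(CPM + 0.5) over the 16 group means, among 22253 genes. These points share the 2 tissues, so r is high throughout, and it is given as a description. For SDC they were AT2G16960 (r = 0.997), AT3G56320 and CYP714A2, a cytochrome P450 gene. For ALN they were AT1G05840 (r = 0.994), AT1G55030 and AT3G59150, and for MPC BST1 (r = 0.984), AT2G17050 and TBL41. For BMI1C they were ELF5A-3 (r = 0.9901), ISU2 and UGT72E3, and for FH5 GUS2 (r = 0.972), AT4G08510 and AT5G66150.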

How the data were processed

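The authors deposited, for each of 32 libraries, a table of read counts per gene, and for the 16 hybrid libraries a table of read counts per gene and allele, both unnormalised; the reference allele was taken as Col and the other as C24. The submitters' processing notes list STAR, HTSeq, Trimmomatic, edgeR and TAIR10, with neither version nor order. How reads were assigned to alleles is not described in them. The 5 summary lines of each count table, which name no gene, were left out; reads without a feature were 2.28% to 17.7%. Of 33602 genes, 32835 matched the RefSeq gene table of TAIR10.1. The members and gene lists were chosen with earlier results of these data known, so no list is independent evidence.

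Gene counts were fitted with edgeR 4.0.16 (quasi-likelihood, R 4.3.3) after TMM scaling and filterByExpr with a minimum count of 10, as 1 fit per set for tissues and 1 per tissue for crosses. Allele counts of nuclear genes with at least 10 allele reads in every library were fitted with the library as a block, a maternal term, a Col against C24 term and an offset of 2 to 1 in endosperm and 1 to 1 in embryo. P-values were adjusted by Benjamini-Hochberg over all genes tested and called under 0.05. The gene and allele tests were tried on simulated data with the same spread for every gene and, for alleles, counting error only. That does not show how they behave for genes with few reads or with uneven replicates. Levels are CPM as mean ± SD. Log2 differences are ± SE, which was derived as the absolute difference divided by the square root of the F statistic. It is unreliable where a group or allele has no reads. Intervals and floors (3 counts) cover counting error only, since reads carry no molecular identifiers. Alternatives were DESeq2 1.42.0, other scalings and filters, a replicate block, other offsets and each library left out. From each list at most 4 genes are named, those called with the largest difference or family and pathway members of the 5; the 3 genes most like each member are those with the highest r. BMI1A was named beside them as a paralog of BMI1C, chosen after its values were seen.

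The seed parent of the CNS crosses was read from the allele tables: C24 gave 29.9% and 31.7% of nuclear allele reads in endosperm of Col or C24(Col) x Col(C24), and 61.5% and 63.5% in Col(C24) x Col. No 2 libraries had identical counts (0 pairs).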

Additional observations from a re-analysis of the deposited data

Results flagged for a closer look

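The accession difference of SDC differed between tissues by an interaction test, with a log2 value of -2.09 (selfed Col minus selfed C24 in endosperm, less the same in embryo). Selfed Col endosperm read 179 and 153 CPM and selfed C24 247 and 283, while the embryos read 9.16 and 5.61 against 2.36 and 2.75 CPM. In the same order of embryo libraries, endosperm markers summed to 146 and 141 CPM against 116 and 69.2 CPM, and seed coat markers to 60.02 and 47.3 against 32.2 and 31.8 CPM. Both were thus higher in selfed Col embryo, as SDC was, and their part in the result was not tested.

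The maternal share of FH5 over the 4 CNS hybrid embryos had 1 library far from the others. Replicate 2 of Col or C24(Col) x Col(C24) had 0 maternal and 17 paternal reads, a share of 0%, and the other 3 libraries were at 53.8% to 56.2%, from 16 to 33 reads each. The cutoff of this flag is set to mark about 1 in 20 groups of 4 normally spread values by chance. Its rate for shares from so few reads was not measured.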

How the results depend on the processing

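Counts are the members called, of 5. In selfed standard endosperm 1 became 2 with library totals (SDC added, adjusted p = 0.0278), with DESeq2, with no filter, with the replicate block and with only the groups compared (MPC added in the last 3), and 0 to 1 with a library left out. In selfed CNS endosperm leaving out a library gave 1 to 2. Reciprocal standard endosperm went from 0 to 1 with no filter and with DESeq2 (BMI1C), and reciprocal CNS endosperm (MPC) and the C24 father on a Col mother (MPC) from 0 to 1 with no filter. The Col father on Col(C24) went from 0 to 1 with no filter and with DESeq2 (BMI1C), and 0 to 1 with a library left out. The interaction of tissue and accession went from 1 to 0 with only the groups compared and to 0 with any library left out. Maternal calls in standard endosperm went from 2 to 4 with an offset of 1 to 1 and 1 to 2 with a library left out. In CNS endosperm they went from 1 to 2 with 10 reads summed over libraries (BMI1C) and to 3 with an offset of 1 to 1. Col against C24 calls in CNS endosperm fell from 2 to 0 to 1 with a library left out. Tissue calls in CNS seeds were 4 to 5. Of the values given for single genes, these changed sign. With library totals BMI1C went to -0.014 for the Col father on a C24 mother. With an offset of 1 to 1, which by construction leaves out the 2 to 1 genome dosage, the maternal terms in CNS endosperm went to 0.87 for ALN (adjusted p = 0.0136) and 0.77 for FH5. With a library left out, selfed CNS endosperm ran from -2.99 to 10.48 for MPC and from -0.82 to 0.034 for ALN. The 10.48 (adjusted p = 0.0326) is fitted against a lone library with no read. Maternal terms ran from -0.0068 to 0.30 for ALN and -0.15 to 0.32 for FH5 in standard endosperm, and from -1.77 to 2.72 for MPC and -1.10 to 0.57 for FH5 in CNS endosperm. Other causes were not tested. Over all tests of the 5 genes, 529 values kept direction and call over the settings, 15 gained the call, 1 lost it and 12 changed sign. With a library left out these were 521, 1, 17 and 57. The values that changed sign were uncalled as reported (0 called), and 1 of the 12 and 1 of the 57 were called after the change.

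With the replicate number as a block, MPC was called in selfed standard endosperm (-4.60, adjusted p = 0.0483) and no other call of a member changed. Libraries with the same number deviated together in most pairs of groups, though not in all. Pairs with r over 0.1 were 22 of 28 in standard and 25 of 28 in CNS seeds, 17 and 27 in endosperm and embryo. The median r was 0.17, 0.21, 0.18 and 0.29 in that order. In every CNS embryo cross SDC and BMI1C were higher in replicate 2 and FH5 lower, while ALN went both ways. What libraries with the same number share was not tested, and the main fits left the number out. Every hybrid embryo library held at most 5 allele reads of BMI1C and of MPC, so no allele test was made for them there.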
